A study of Mus musculus with 18 samples.

Results

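The 9 genes described here encode the machinery that makes thyroid hormone in the follicular cell and the receptor that drives it: Tg, Slc5a5, Slc26a4, Duox1, Duox2, Duoxa1, Duoxa2, Iyd and Tshr. They were taken by gene symbol from tables of 24054 genes, and all 9 were present for each tissue. RNA-Seq had been done on thyroid, pituitary and hypothalamus of 3 WT and 3 K146Q male mice at 3 months of age, in 18 libraries that form 6 groups of 3. The mice carried the strain label C57BL/Ntac, written C57BL/NTC in the paper, and received no treatment. K146Q mice were homozygous in the whole body for a single base change in Thrb that replaces a lysine of thyroid hormone receptor β and removes a site of sumoylation in every isoform of the receptor. WT mice lacked this allele and were the only controls. By the sample labels, each of the 3 tissues had libraries numbered 1, 2 and 43 for WT mice and 60, 62 and 83 for K146Q mice. That an equal number means the same mouse is read from these labels alone. The comparison asks how a receptor that cannot be sumoylated at this lysine alters the hypothalamus-pituitary-thyroid axis, here at the level of hormone synthesis.

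The follicular cell takes up iodide from blood through the sodium-iodide symporter (Slc5a5) and passes it into the follicle lumen, a step to which pendrin (Slc26a4) contributes. In the lumen, iodide is oxidized and attached to tyrosines of thyroglobulin (Tg), the protein on which the hormone is built, with hydrogen peroxide made by the dual oxidases Duox1 and Duox2 and their maturation factors Duoxa1 and Duoxa2. Thyroglobulin is then taken up and digested to release hormone, Iyd recovers iodide from unused iodotyrosines, and TSH from the pituitary drives the whole process through its receptor, Tshr.

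Levels are given as normalized CPM, reads of a gene relative to a library size that the authors had adjusted, and libraries are named by mouse number. The libraries held 14902330 to 21230050 reads, and in every library each value was a whole number of reads. In the thyroid, totals ran from 19451890 to 20534278 reads in WT and from 18611998 to 21230050 in K146Q mice. The lowest count that was read as present, 3 reads, corresponded to between 0.133 and 0.190 CPM. The thyroid libraries held the follicular transcription factors, with Pax8 at 430 to 468 CPM in WT and 556 to 624 CPM in K146Q thyroids. Pituitary libraries had Gh as their most abundant pituitary marker and hypothalamus libraries had Pmch as theirs.

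Thrb, the mutated gene itself, had a level of 14.9, 16.3 and 15.6 CPM in the thyroid of WT mice 1, 2 and 43, and of 7.19, 5.64 and 4.98 CPM in that of K146Q mice 60, 62 and 83. All K146Q thyroids were below all WT thyroids, with a log2 fold change of -1.33 (SE 0.14, adjusted p = 0.00121 by limma). In the pituitary Thrb was higher in K146Q mice, at 162 ± 20.9 (SD, n = 3) against 103 ± 4.35 CPM (log2 fold change 0.65, SE 0.11, limma adjusted p = 0.0202), and in the hypothalamus it was at 27.6 ± 2.08 against 27.9 ± 0.914 CPM. A level of mRNA does not show which allele is read, so these values do not check the genotype.

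In the thyroid all 9 genes had enough reads to be tested. Tshr was higher and Tg and Duox2 were lower in K146Q mice, and the remaining 6 did not pass an adjusted p of 0.05. These 3 genes were also the only members whose genotypes did not overlap. Differences were frequent in this tissue: 35.3% of the 15200 genes tested passed (18.4% higher and 16.9% lower), beside 3 of 9 synthesis genes. Without K146Q mouse 62 the same 3 members passed and 22% of all genes did, the lowest share when single mice were left out. Genotypes did not overlap for 52.3% of all genes, a larger share than the 3 of 9 here. The balance of directions depended on scaling: 52.2% of the called genes were higher, against 74.1% with plain CPM of the read totals and 30.6% with scaling to follicular transcription factors. The median log2 fold change was 0.29 over the 9 genes and -0.03 over all genes tested. In bulk tissue, fewer cells of a type and less RNA per cell cannot be told apart, and this holds for each thyroid value given here.

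**Figure D1:**
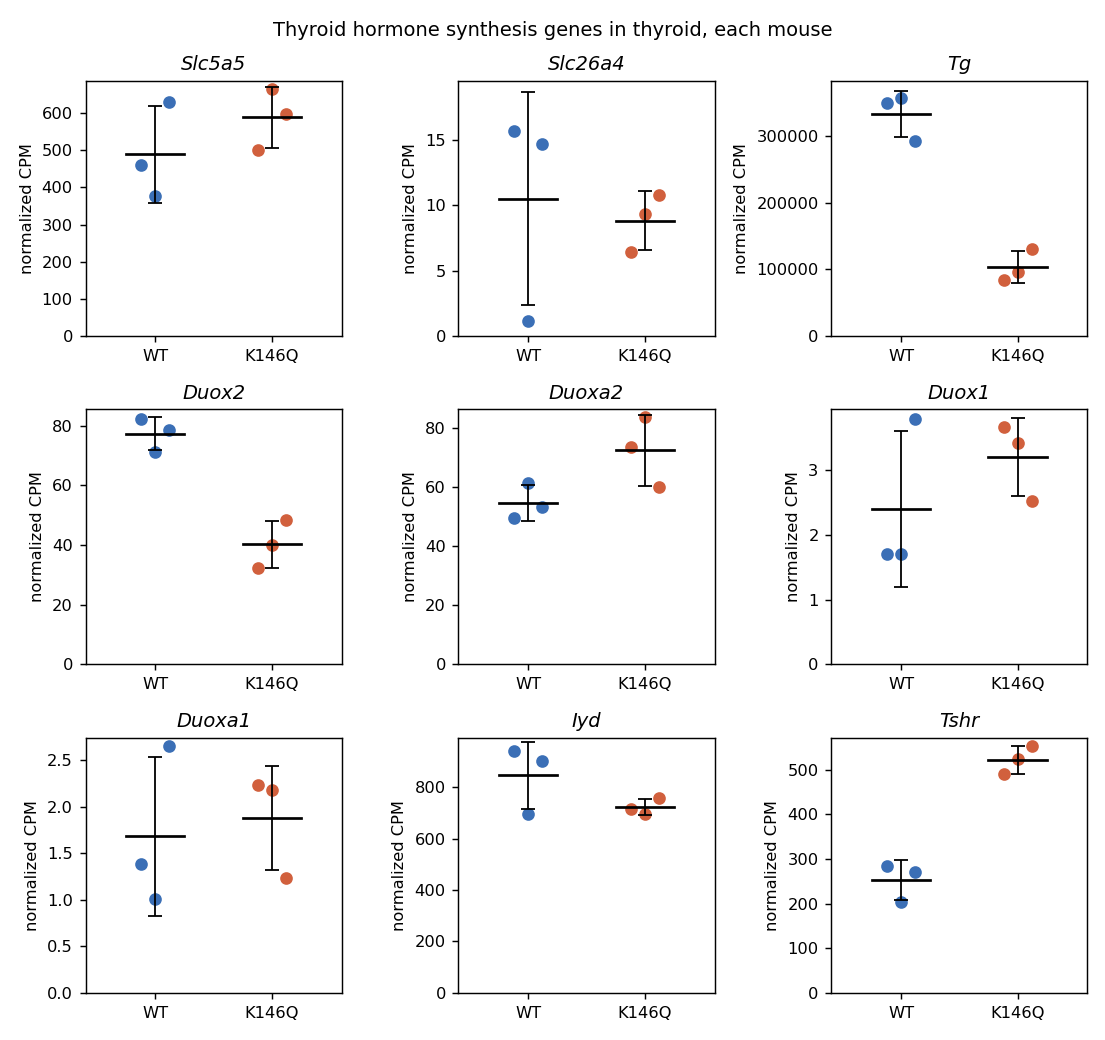
Normalized CPM of the 9 synthesis genes in the thyroid of 3 WT (blue) and 3 K146Q (orange) mice, each axis starting at 0. Points are mice and the black lines are the mean and SD; the genotypes do not overlap for Tg and Duox2 (lower in K146Q) or for Tshr (higher).

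Thyroglobulin mRNA showed the largest difference among the 9 genes. Tg, on the plus strand of chr15:66670753-66850721 (GRCm38, GENCODE M21), stood at 349907, 357296 and 293439 CPM in WT thyroids 1, 2 and 43 and at 83869, 96214 and 130421 CPM in K146Q thyroids 60, 62 and 83. The lowest WT thyroid was above the highest K146Q thyroid. The mean level was 3.22-fold lower in K146Q mice, with 333547 ± 34931 (SD, n = 3) CPM in WT and 103501 ± 24116 CPM in K146Q thyroid (log2 fold change -1.71, SE 0.18, 95% interval -2.15 to -1.27, adjusted p = 0.00127 by limma). An exact two-sided permutation test gave p = 0.1, the smallest that 3 mice against 3 allow. Tg is so abundant that it took 27.6%, 29.0% and 23.8% of all reads in the WT thyroids, and 7.97%, 8.80% and 11.5% in the K146Q thyroids. The scale of every other gene therefore depends on how the libraries are normalized. With plain CPM of the read totals the log2 fold change of Tg was -1.52, and with libraries scaled to the mean log2 level of Nkx2-1, Pax8, Foxe1 and Hhex it was -1.93. The call was lost in limma with a mean-variance trend (adjusted p = 0.82). Under quantile normalization the difference was 0, because Tg was the highest gene in each thyroid library and was given the same value in all of them. A noncoding antisense gene, Gm17140, shares 112 exonic bases with Tg and the antisense gene Sla lies inside Tg over 51011 bases without a shared exonic base.

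Tshr, the receptor through which TSH acts on the follicular cell, changed in the opposite direction. Tshr lies on chr12:91384563-91549808 (plus strand) and contains a processed pseudogene. Its level was 284, 203 and 271 CPM in WT thyroids 1, 2 and 43 and 490, 525 and 552 CPM in K146Q thyroids 60, 62 and 83. The K146Q thyroids were close to each other and all were above the WT thyroids. The mean rose 2.07-fold, from 253 ± 43.8 (SD, n = 3) to 522 ± 31.3 CPM (log2 fold change 1.06, SE 0.15, 95% interval 0.70 to 1.42, limma adjusted p = 0.00308; exact permutation p = 0.1). The call was kept in all 18 alternatives, in which the log2 fold change ran from 0.84 to 1.25.

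The dual oxidases and their maturation factors lie side by side on mouse chromosome 2 as divergent pairs. Duox2 (chr2:122279247-122298449, minus strand) and Duoxa2 (chr2:122298900-122302885, plus strand) start 451 bases apart, and Duox1 (chr2:122315672-122347972, plus strand) and Duoxa1 (chr2:122302191-122313730, minus strand) start 1942 bases apart. Each oxidase needs its maturation factor to leave the endoplasmic reticulum and work at the cell surface. Duoxa1 and Duoxa2 overlap tail to tail and share 682 exonic bases on opposite strands. Whether reads were counted by strand is not given in the sources used here, so reads from this stretch could be assigned to either gene.

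Duox2, the main dual oxidase of the thyroid, was lower in K146Q mice. Its level was 82.2, 71.2 and 78.5 CPM in WT thyroids 1, 2 and 43 and 32.3, 40.1 and 48.2 CPM in K146Q thyroids 60, 62 and 83. No K146Q thyroid reached the lowest WT thyroid. The mean was 1.92-fold lower, at 40.2 ± 7.97 (SD, n = 3) against 77.3 ± 5.58 CPM (log2 fold change -0.95, SE 0.16, 95% interval -1.33 to -0.57, limma adjusted p = 0.00577; exact permutation p = 0.1). The call was kept in all 18 alternatives, between -1.17 and -0.76.

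Duoxa2 did not share this fall. It stood at 49.6, 61.4 and 53.2 CPM in WT thyroids 1, 2 and 43 and at 73.7, 84.0 and 60.1 CPM in K146Q thyroids 60, 62 and 83. K146Q mouse 83 lay below WT mouse 2, and the other K146Q mice lay above all WT mice. The log2 fold change was 0.40 (SE 0.15, 95% interval 0.03 to 0.76), with a limma adjusted p of 0.0872. It passed without K146Q mouse 83 (0.53, adjusted p = 0.0389), with DESeq2 on the recovered reads (adjusted p = 0.0255) and with plain CPM (adjusted p = 0.0337).

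Because both genes were read in the same library, their ratio does not depend on how libraries were scaled. There was 1.66, 1.16 and 1.47 times as much Duox2 as Duoxa2 in WT thyroids 1, 2 and 43, and 0.438, 0.477 and 0.803 times as much in K146Q mice 60, 62 and 83. Duox2 was thus the higher of the pair in every WT thyroid and the lower in every K146Q thyroid, without correction for length. The mean log2 ratio was 0.50 ± 0.26 (SD, n = 3) in WT and -0.86 ± 0.47 in K146Q mice, a difference of -1.36 with an exact permutation p of 0.1. Leaving out single mice gave differences between -1.63 and -1.19.

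**Figure D2:**
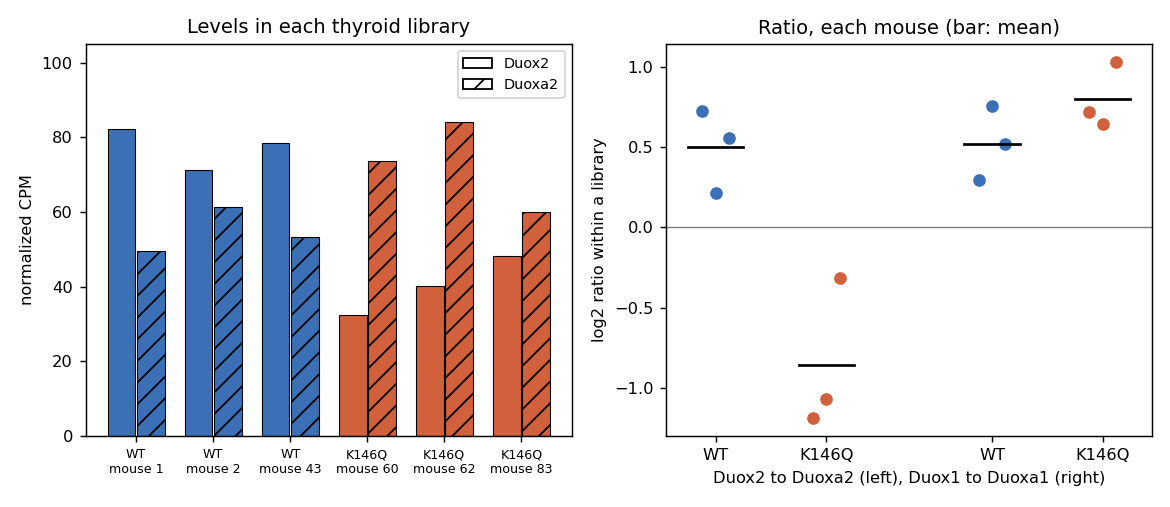
Left, normalized CPM of Duox2 (plain bars) and Duoxa2 (hatched bars) in each thyroid library of WT (blue) and K146Q (orange) mice, from 0. Right, log2 ratio within each library for both divergent pairs, with the mean as a bar; the Duox2 to Duoxa2 ratio is above 0 in the 3 WT mice and below 0 in the 3 K146Q mice.

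Duox1 and Duoxa1 were expressed far below the other pair. Duox1 stood at 1.71, 1.71 and 3.79 CPM in WT thyroids 1, 2 and 43 and at 3.67, 3.41 and 2.52 CPM in K146Q thyroids 60, 62 and 83, on 27 to 74 reads per library. WT mouse 43 had the highest value of all, and the genotypes overlapped. Its log2 fold change was 0.41 (SE 0.29, 95% interval -0.28 to 1.10, limma adjusted p = 0.303), and it passed only without WT mouse 43 among the 18 alternatives (0.73, adjusted p = 0.0255). Duoxa1 was at 1.39, 1.01 and 2.65 CPM in WT thyroids 1, 2 and 43 and between 1.23 and 2.23 CPM in K146Q thyroids, with a log2 fold change of 0.16 (SE 0.31, 95% interval -0.58 to 0.91, limma adjusted p = 0.711). WT mouse 43 was again the highest. The log2 ratio of Duox1 to Duoxa1 was 0.52 ± 0.23 (SD, n = 3) in WT and 0.80 ± 0.21 in K146Q mice, a difference of 0.28 (exact permutation p = 0.3). Per kilobase of the longest annotated coding transcript, levels in the WT thyroid were 12.7 ± 0.913 CPM for Duox2, 34.4 ± 3.78 for Duoxa2, 0.456 ± 0.228 for Duox1 and 0.682 ± 0.347 for Duoxa1 (SD, n = 3).

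THRB can act on genes through the hexamer AGGTCA, the half-site of a thyroid hormone response element. The stretches before the start sites were searched for it on both strands. The paper also describes THRB as tethered to other transcription factors, which a search for this hexamer does not cover. RefSeq start sites were at hand for 7 of the 9 genes, all but Tg and Tshr, and the 250 bases before each start (GRCm38.p6) were read. The windows of Duox2 and Iyd reach into the GENCODE M21 gene, that of Duox2 for most of its length, so for these the counts below do not describe only sequence upstream of the positions given here. AGGTCA occurred in 2 of them, Duoxa1 and Duoxa2, against 14.0% of the 32851 RefSeq promoters. Both are shown because they are the maturation factor genes of the divergent pairs, with AGGTCA or its reverse complement TGACCT and the TATA box letters TATAAA in capitals. The Duoxa2 stretch is chr2:122298650-122298899 on the plus strand and the Duoxa1 stretch is chr2:122313731-122313980, written for the minus strand.
Duoxa2: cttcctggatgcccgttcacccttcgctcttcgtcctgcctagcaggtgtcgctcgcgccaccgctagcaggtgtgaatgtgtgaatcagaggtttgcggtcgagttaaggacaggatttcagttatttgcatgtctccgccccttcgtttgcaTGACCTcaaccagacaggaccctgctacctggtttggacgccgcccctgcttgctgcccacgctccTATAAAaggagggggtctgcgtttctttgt
Duoxa1: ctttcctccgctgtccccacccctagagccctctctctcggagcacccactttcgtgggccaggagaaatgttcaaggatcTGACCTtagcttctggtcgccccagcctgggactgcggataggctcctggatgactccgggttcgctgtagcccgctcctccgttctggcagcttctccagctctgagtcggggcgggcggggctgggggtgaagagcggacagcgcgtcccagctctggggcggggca

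In Duoxa2 the hexamer lies on the opposite strand, 96 to 91 bases before the start, and in Duoxa1 169 to 164 bases before it. Each stretch lies between the GENCODE M21 start sites of a divergent pair. The hexamers are therefore also upstream of Duox2 and of Duox1, outside the windows read for those genes. TATAAA was found before Duoxa2, Iyd and Slc26a4, at 12.4% of all promoters. The cyclic AMP response element TGACGTCA was found before none of the 7 genes and in 1.55% of all promoters, and its core TGACG before Iyd alone and in 17.8% of all promoters (TGACG is contained in TGACGTCA). These are matches of letters. They show no binding, and a missing match says only that the letters are not in this window. The paper reports cyclic AMP response elements in the promoter regions of Tg and Duox2. Tg was not searched here, and the window of Duox2 lay mostly inside the gene.

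Of the iodide transporters among the 9 genes, neither Slc5a5 nor Slc26a4 passed the test. Slc5a5, the sodium-iodide symporter (chr8:70882889-70892757, minus strand), was at 459, 376 and 630 CPM in WT thyroids 1, 2 and 43 and at 502, 666 and 597 CPM in K146Q thyroids 60, 62 and 83. The genotypes overlapped, and the log2 fold change of 0.29 (SE 0.21, 95% interval -0.21 to 0.80, limma adjusted p = 0.321) was within the spread between mice. Its call did not change in any of 18 alternatives.

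Slc26a4, which encodes pendrin (chr12:31519827-31559969, minus strand), was at 15.7, 1.14 and 14.7 CPM in WT thyroids 1, 2 and 43 and at 6.39, 9.34 and 10.8 CPM in K146Q thyroids 60, 62 and 83. WT mouse 2 stood apart with only 18 reads. The log2 fold change was 0.31 (SE 0.88, 95% interval -1.80 to 2.42, limma adjusted p = 0.81), an interval that holds a change of either sign. Without WT mouse 2 the sign turned, to -0.78 (adjusted p = 0.0506). The same library held 10.3 CPM of Rag1, a gene of developing lymphocytes, which had no reads in the other thyroids. Among the folding genes given below, it had the lowest level of the 6 thyroids for all but Canx.

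Iyd, which recovers iodide from iodotyrosines (chr10:3540240-3554877, plus strand), was at 939, 695 and 903 CPM in WT thyroids 1, 2 and 43 and at 713, 696 and 758 CPM in K146Q thyroids 60, 62 and 83. WT mouse 2 was at the level of the K146Q mice and the other WT mice were above it. The log2 fold change was -0.22 (SE 0.14, 95% interval -0.54 to 0.11, limma adjusted p = 0.259). It passed without WT mouse 2 (-0.35, adjusted p = 0.0475) and under quantile normalization (-0.54, adjusted p = 0.0135).

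**Figure D3:**
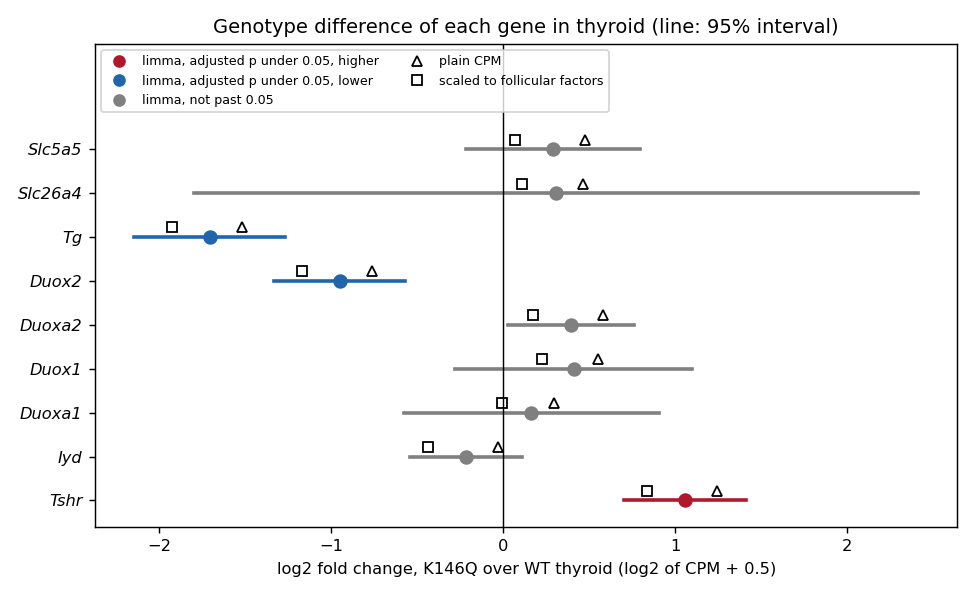
Log2 fold change of K146Q over WT thyroid for the 9 genes (log2 of CPM + 0.5), with points for limma and lines for the 95% interval. Open triangles are plain CPM and open squares the values after scaling to the follicular transcription factors; Tg and Duox2 stay below 0 and Tshr above 0 under each scaling shown.

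Levels between genes were compared per kilobase of transcript. In the WT thyroid Tg led with 39454 ± 4132 CPM per kilobase (SD, n = 3), followed by Iyd (536 ± 83.3), Slc5a5 (167 ± 44.2), Tshr (58.6 ± 10.1), Duoxa2, Duox2, Slc26a4 (3.42 ± 2.65), Duoxa1 and Duox1, with the values of the Duox genes given above. In K146Q mice Tg still led with 12243 ± 2853 CPM per kilobase, Tshr stood at 121 ± 7.26, Duoxa2 at 45.6 ± 7.55 and Duox2 at 6.58 ± 1.303. Tg was thus well above every other synthesis gene in both genotypes.

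The wider pathway was read from 6 lists of 46 genes that act beside the 9 genes in the follicular cell. Of the 45 that were expressed enough to be tested in the thyroid, 15 were higher, 9 lower and 21 not called in K146Q mice, where 18.4% of all genes tested were higher and 16.9% lower. The counts of each list below are to be read against these shares. Of these 24 calls, 15 were kept in all 18 alternatives. The number kept was lowest without K146Q mouse 62, at 17 of 24, and was 19 to 23 when another mouse was left out. None of them changed sign in these alternatives. Of the 9 that were lost at least once, 4 were the follicular transcription factors below and the others were Ano1, Clcn5, Cat, Prkaca and Prkacb.

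The transcription factors that hold the follicular cell fate moved in both directions. Of 5 tested, Nkx2-1 (log2 fold change 0.38), Pax8 (0.38) and Hhex (0.66) were higher, Foxe1 (-0.53) was lower and Glis3 was not called. The paper reports Glis3 as reduced in K146Q mice by its own test, so the missing call here does not mean that Glis3 was unchanged. Foxe1 was at 369, 353 and 390 CPM in WT thyroids and at 242, 297 and 233 CPM in K146Q thyroids, without overlap. Scaling to Nkx2-1, Pax8, Foxe1 and Hhex moves the mean of these genes to no difference by construction and is not read for them. Nkx2-1 and Pax8 did not pass under a pair of other scalings, totals without the 10 most abundant genes (log2 fold change 0.28, adjusted p = 0.0892, and 0.29, adjusted p = 0.0743) and quantile normalization (0.13 each, adjusted p = 0.409 and 0.424). When single mice were left out, Nkx2-1 passed in 1 of 6 fits and Pax8 in 3 of 6 (highest adjusted p = 0.115 and 0.0857, both without K146Q mouse 62), and Hhex failed without K146Q mouse 62 (adjusted p = 0.0511). Foxe1 did not pass with plain CPM (adjusted p = 0.0704) or without K146Q mouse 60 (adjusted p = 0.0534).

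Among 8 genes of iodide and ion handling, 7 were tested, 2 were higher and 3 lower. Slc5a8, an apical monocarboxylate transporter of the thyroid, was at 118, 136 and 94.7 CPM in WT thyroids and at only 3.92, 4.23 and 6.21 CPM in K146Q thyroids (log2 fold change -4.48, SE 0.21, limma adjusted p = 0.000116). This was the largest change among the pathway genes. Slc26a7, an anion transporter needed for iodide handling in the thyroid, was at 638, 541 and 532 CPM in WT thyroids and at 172, 209 and 219 CPM in K146Q thyroids (log2 fold change -1.51, SE 0.13, limma adjusted p = 0.000642), while the chloride channel Ano1 rose by 0.50 and the potassium channel Kcnq1 by 0.71 on the log2 scale. Clcn5, an endosomal chloride transporter, was lower by a log2 fold change of -0.72, and the chloride channel Cftr was not called. Kcne2, the partner of Kcnq1, did not pass the filter, with values of 0.0632, 0 and 0 CPM in WT and 0.743, 0.823 and 0.41 CPM in K146Q thyroids.

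The peroxide genes were likewise split, with 2 of 5 higher and 2 lower. Nox4, an NADPH oxidase, rose by 1.33 and Cyba, a membrane subunit that it needs, rose by 1.58 on the log2 scale, Cyba from 94.1 ± 15.1 to 282 ± 34.6 CPM (SD, n = 3). Cyba is also a gene of phagocytes, and the sum of 4 leukocyte markers was 76.0, 63.9 and 72.2 CPM in WT and 143, 135 and 145 CPM in K146Q thyroids, a part that was not tested. Gpx3, a secreted glutathione peroxidase, fell from between 252 and 287 CPM in WT to between 89.5 and 128 CPM in K146Q thyroids (log2 fold change -1.299, SE 0.15, limma adjusted p = 0.00151). Catalase (Cat) was lower with a log2 fold change of -0.84 and a limma adjusted p of 0.0427 that did not hold in 7 of 18 alternatives, and Gpx1 was not called.

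No gene of the 7 that fold thyroglobulin in the endoplasmic reticulum was called, and their median log2 fold change was 0.22. The WT mice themselves differed for these genes. Hspa5, the main chaperone, was at 5055, 2429 and 4685 CPM in WT thyroids 1, 2 and 43 and at 2594, 2434 and 4151 CPM in K146Q thyroids 60, 62 and 83. For Hspa5 WT mouse 2 thus had the level of the lowest K146Q mice. For Hsp90b1, Calr, Pdia3, Pdia4 and Pdia6, but not Canx, it lay below every other thyroid of either genotype. Pdia4, for example, was at 776 CPM in WT mouse 2 and between 1577 and 2279 CPM in the others.

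The list of genes for uptake, proteolysis and export had the largest median of the 6 lists (log2 fold change 0.93 against -0.03 for all genes), and its called proteases rose. Of its 9 genes, 5 were higher (18.4% of all genes were), 1 was lower (16.9% of all genes were) and 3 were not called. Ctsb, a lysosomal protease, was at 1511, 1005 and 1688 CPM in WT thyroids and at 6745, 5949 and 5939 CPM in K146Q thyroids (log2 fold change 2.18, SE 0.20, limma adjusted p = 0.000782). Ctsl rose by 2.02, Ctss by 1.54, Lgmn by 1.09 and Ctsk by 0.93 on the log2 scale, and each of the 5 was called in all 18 alternatives. Slc16a10, a transporter of aromatic amino acids and thyroid hormone, was lower with a log2 fold change of -1.24, and the protease Ctsd and the uptake receptor Lrp2 were not called. Markers of leukocytes, which also use these proteases, moved with them. In the sum given above, of Ptprc, Cd3e, Cd79a and Csf1r, Csf1r was the most abundant, and 2 of the 3 markers tested were called higher. The part of leukocytes in the rise of the proteases was not tested.

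Below the TSH receptor, 12 signalling genes were tested, of which 3 were higher, 2 lower and 7 not called, a share of calls near the 35.3% of all genes. Gnas, the stimulatory G protein that couples Tshr to cyclic AMP, fell from 2609 ± 353 to 1531 ± 176 CPM (SD, n = 3; log2 fold change -0.77, SE 0.14, limma adjusted p = 0.00737). The adenylyl cyclase Adcy3 rose by 1.03, the kinase subunit Prkacb by 0.45 and the cyclic AMP responsive regulator Crem by 0.76 on the log2 scale, and the kinase subunit Prkaca was lower with a log2 fold change of -0.39. The receptor and its G protein thus moved in opposite directions in the same thyroids.

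**Figure D4:**
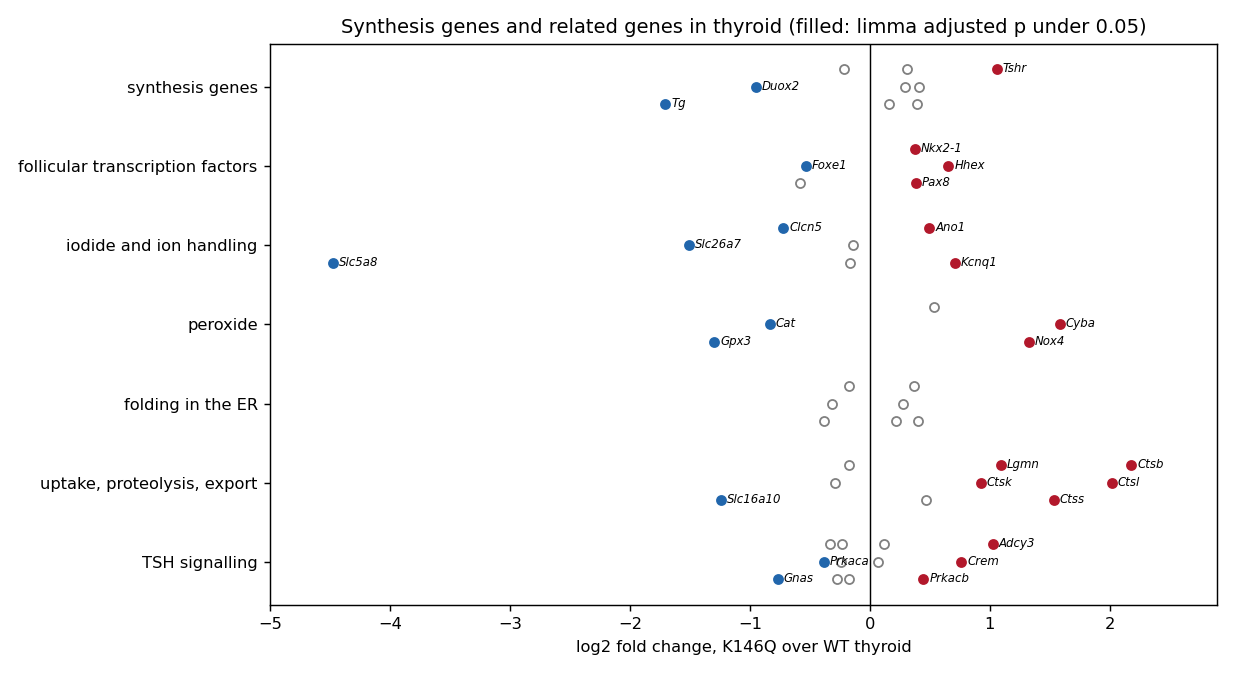
Log2 fold change of K146Q over WT thyroid for the 9 synthesis genes and the 45 tested genes of 6 pathway lists, each row a list and each point a gene (vertical offsets only separate points). Filled red and blue points passed limma at 0.05 and are named; the proteases Ctsb and Ctsl lie furthest to the right and Slc5a8 furthest to the left.

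The dissected thyroids also held cells other than follicular cells, and markers of several of these moved with genotype. C cells lie within the gland beside the follicles, and parathyroid, fat and muscle adjoin it. Calca, the gene of calcitonin and the most abundant C cell marker, was at 2158, 2069 and 2591 CPM in WT and 310, 163 and 165 CPM in K146Q thyroids. It was called lower, as was the C cell marker Ret (log2 fold change -0.89), while Calcb was called higher. The parathyroid markers Pth, Gcm2 and Casr, all 3 called lower, summed to 3454, 6409 and 4129 CPM in WT and 1569, 523 and 622 CPM in K146Q thyroids, mostly as Pth.

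Summed fat markers were lower in every K146Q thyroid. The 4 white fat markers, all called lower and led by Fabp4, summed to 488, 493 and 599 CPM in WT and 145, 89.4 and 77.3 CPM in K146Q thyroids. The 3 brown fat markers, of which 2 were called lower, summed to 225, 161 and 65.3 CPM in WT and 11.1, 13.2 and 1.06 CPM in K146Q thyroids, with Ucp1 the most abundant. No fat or parathyroid marker was at 0 in every library.

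Skeletal muscle markers, led by Myh4, summed to 336, 4256 and 6438 CPM in WT and to 3631, 874 and 755 CPM in K146Q thyroids, and none of the 5 was called. Of 4 endothelial markers, led by Kdr, only Cdh5 was called (higher), and the sums were 577, 601 and 504 CPM in WT and 661, 657 and 745 CPM in K146Q thyroids. The markers of cartilage and trachea summed to at most 2.85 CPM, and those of thymus were at 23.9 CPM in WT mouse 2 and below 1 CPM in the other thyroids. Pituitary markers, mostly Gh, summed to 501 CPM in WT mouse 1 and to between 92.4 and 159 CPM in the others, and none of the 5 was called. The 5 follicular markers summed to 1613, 1700 and 1519 CPM in WT and 2128, 2341 and 1961 CPM in K146Q thyroids, with 4 called higher and Foxe1 called lower. The part of these tissues in the levels of the synthesis genes was not tested. With scaling to follicular transcription factors the log2 fold change was -1.93 for Tg, -1.17 for Duox2 and 0.84 for Tshr.

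By likeness over the 6 thyroid libraries (Pearson r of log2 values among 10335 other genes with a mean of at least 10 CPM, a description without a test, since the same 6 libraries, their depth and the genotype difference are shared by all genes), the nearest to Tg were Cul2, Ahcyl1, Cdkl2, Prepl and Slc30a5, each with an r of 0.998. Their log2 fold changes were smaller than that of Tg and ran from -0.22 for Cul2 to -0.78 for Cdkl2. The nearest to Duox2 were Ss18l1 (0.997), Ppip5k1 (0.995), Nbr1 (0.994), Slc25a51 (0.993) and Lztr1 (0.993). Ppip5k1 had the largest log2 fold change of these, at -0.65.

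Outside the thyroid most of the 9 genes were close to absent. By limma over all 18 libraries, Tg, Slc5a5 and Tshr were higher in the WT thyroid than in WT pituitary and WT hypothalamus. In these comparisons 75.3% and 81.7% of 17140 genes differed. Iyd and Slc26a4 were also called higher in the WT thyroid than in the WT hypothalamus. Against pituitary the log2 difference was 11.15 for Tg (SE 0.16), 8.13 for Slc5a5 (SE 0.20) and 6.81 for Tshr (SE 0.24), and for the members with only a few reads there it depends on the added 0.5 and is not given. Duox1, Duox2, Duoxa1 and Duoxa2 had at most 11 reads in any pituitary or hypothalamus library, and Slc26a4 had at most 2 in the pituitary. These 4 Duox genes and, in the pituitary, Iyd and Slc26a4 did not pass the filter, so no genotype fold is given for them. They entered the fit of 18 libraries only through tissues where they are higher. No call against a tissue where they failed the filter is therefore given.

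**Figure D5:**
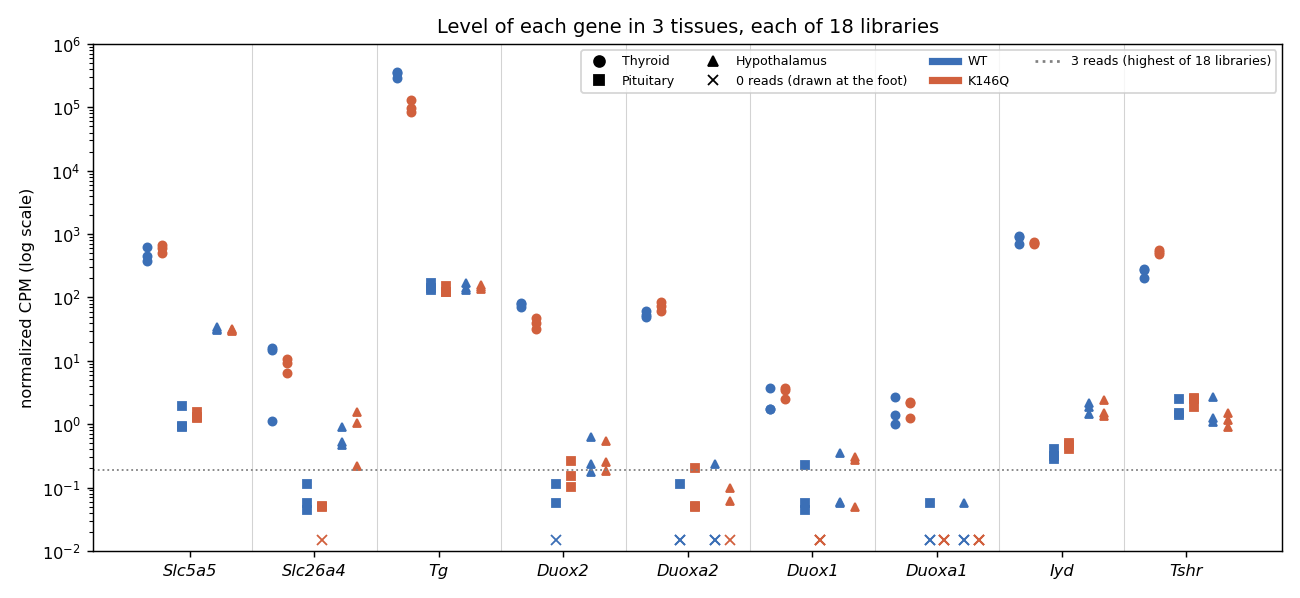
Normalized CPM on a log axis of the 9 genes in thyroid (circles), pituitary (squares) and hypothalamus (triangles) of WT (blue) and K146Q (orange) mice, 1 point per library, with libraries without reads as crosses at the foot. The dotted line is the highest level that 3 reads had in any library, 0.19 CPM; outside the thyroid the Duox genes lie on both sides of it, up to 0.636 CPM for Duox2 in 1 hypothalamus, while Tg lies above 100 CPM in every library.

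Tg was an exception in its level. It stood at 132, 140 and 170 CPM in the pituitary of WT mice 1, 2 and 43 and at 121, 120 and 151 CPM in that of K146Q mice 60, 62 and 83. In the hypothalamus it stood at 133, 142 and 167 CPM in WT and between 135 and 155 CPM in K146Q mice. The values overlapped between genotypes and between these tissues, and their means over 6 libraries were 0.0635% and 0.0670% of the thyroid mean.

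Other transcripts were also read at low shares outside their own tissue. Gh, the growth hormone of the pituitary, had a mean of 143 CPM in the thyroid, with WT mouse 1 highest at 365 CPM, and 91.9 CPM in the hypothalamus, 0.132% and 0.0851% of its pituitary mean, and Prl had 0.12% and 0.0867%. Of the follicular factors, Pax8 had 0.0644% of its thyroid mean in the pituitary and 0.102% in the hypothalamus, Foxe1 0.0807% and 0.0388%, Hhex 1.26% and 0.829%, and Nkx2-1, which is also a gene of the hypothalamus, 1.26% and 4.53%. Where the reads of Tg outside the thyroid came from was not tested.

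Slc5a5 was the other gene with a clear level outside the thyroid. Hypothalamic levels were 30.5, 34.1 and 31.7 CPM for WT mice 1, 2 and 43, and 31.3, 29.9 and 30.3 CPM for K146Q mice 60, 62 and 83, a mean of 5.81% of the thyroid level. In the pituitary it was at 0.934, 0.915 and 1.94 CPM in WT and 1.24, 1.28 and 1.56 CPM in K146Q mice. The WT hypothalamus was thus above the WT pituitary for each mouse number (log2 difference of pituitary minus hypothalamus -4.26, SE 0.20, limma adjusted p = 3.40e-11). Iyd stood at 1.81 ± 0.345 CPM in the WT hypothalamus and at 0.332 ± 0.0605 CPM in the WT pituitary (SD, n = 3), on 5 to 7 reads per WT pituitary. It did not pass the filter in the pituitary, so no call between these tissues is given. Duox2 had 3, 11 and 4 reads in the WT hypothalamus and 0, 1 and 2 reads in the WT pituitary of mice 1, 2 and 43. It passed the filter in neither tissue, so no call between them is given. At these reads no fold is given. In this comparison 73% of genes differed. Tshr was at 1.78 ± 0.617 CPM in WT pituitary and 1.67 ± 0.866 CPM in WT hypothalamus (SD, n = 3) and was not called different between them, nor was Tg. Slc26a4 did not pass the filter in the pituitary, so no call is given for it.

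Between genotypes none of the 9 genes was called outside the thyroid. In the pituitary 3 were tested, while 7.08% of 15589 genes were called (4.8% higher and 2.28% lower): Tg (log2 fold change -0.17, 95% interval -0.49 to 0.15), Slc5a5 (0.12, -0.39 to 0.63) and Tshr (0.32, -0.15 to 0.78). The K146Q and WT pituitaries did not overlap for Iyd, on 5 to 10 reads per library, and for Duox1, on 0 to 4 reads, where 31% of tested genes showed no overlap. In the hypothalamus 5 were tested: Tg (log2 fold change -0.02), Slc5a5 (-0.07), Iyd (-0.06), Slc26a4 (0.24) and Tshr (-0.31), and all overlapped between genotypes, where 9.15% of tested genes did not. There limma called 0% of 15761 genes, with 726 at an unadjusted p under 0.05, edgeR called 0 and DESeq2 called 9. Of the 6 pathway lists, the pituitary of K146Q mice had 4 of 7 folding genes higher (Hsp90b1, Calr, Pdia3 and Pdia6) as well as Gpx3, Ctss and Gnas, and none lower, by the same test, where 4.8% of all genes were higher. In alternatives run for these 7 genes after the data had been seen, Calr, Pdia6 and Ctss passed in every one, while without K146Q mouse 60 or without K146Q mouse 62 only these 3 passed, where 2.26% and 2.24% of all genes were called. Without WT mouse 2 Calr, Pdia3, Pdia6 and Ctss passed, and none of the 7 changed sign. Markers of cell types moved in the same libraries. The leukocyte markers Ptprc and Csf1r, the endothelial marker Pecam1, the white fat marker Fabp4 and the TSH subunit Tshb were higher. Casr of the parathyroid list was higher too, and that list summed to 13.3, 13.1 and 11.1 CPM in WT and 104, 65.7 and 48.1 CPM in K146Q mice. Prl (log2 fold change -1.65) and the cartilage marker Acan were lower. The sum of 5 pituitary markers, led by Gh, was 129660, 162563 and 252469 CPM in WT and 88612, 99791 and 96270 CPM in K146Q mice. Their part in these list genes was not tested.

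The genotype difference itself was compared between tissues for members tested in both, in a fit of all 18 libraries. Tg fell more in the thyroid than it changed in the pituitary, by -1.54 (SE 0.22, 95% interval -2.01 to -1.07, limma adjusted p = 9.75e-05) and in the hypothalamus, by -1.69 (SE 0.22, 95% interval -2.16 to -1.22, adjusted p = 5.06e-05). These contrasts were called for 32.4% and 29.8% of all genes. Tshr rose more in the thyroid than in the hypothalamus, by 1.37 (SE 0.34, adjusted p = 0.00697), and the same contrast with the pituitary was 0.74 (SE 0.34, adjusted p = 0.109). The call against the hypothalamus was lost without K146Q mouse 62 (1.24, adjusted p = 0.0516), and the contrast with the pituitary passed without WT mouse 43 (0.89, adjusted p = 0.0458) and with 1 added in place of 0.5 (0.80, adjusted p = 0.0412). Slc5a5 did not differ detectably in either contrast (0.17 and 0.36, adjusted p = 0.684 and 0.369), although the latter passed without WT mouse 43 (0.57, adjusted p = 0.0364). Iyd and Slc26a4 were not called against the hypothalamus (-0.15 and 0.07).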

How the data were processed

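Thyroid, pituitary and hypothalamus from 3 WT and 3 K146Q mice were sequenced, 18 libraries in all, grouped by tissue, genotype and mouse number from the labels. The authors deposited 1 table per tissue, which holds a normalized signal for every gene and library (CPM of an adjusted library size). Per the submitters' processing notes, bcl2fastq 2.17, Bowtie2 2.1.0, RSEM 1.2.15 and the build mm10 were used, and the tool that normalized is not given in the sources used here. The deposited fold changes, average log2 values, likelihood ratios, p-values and FDR of the authors were not used. Dividing the deposited signal by the worth of 1 read gave whole reads for 100% of 432972 values (within 0.02 reads), 14902330 to 21230050 per library. Replicates differed by more than sampling noise (the smallest ratio of chi-square to its degrees of freedom was 6.11). Intervals and the floor of 3 reads cover counting error only where they rest on reads.

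Values were tested as log2(value + 0.5) with limma 3.58.1 (R 4.3.3) in each tissue alone, with no trend of variance on mean. The trend was left out because earlier results of these data had shown it to be extrapolated for Tg, which lies far above all other genes. A gene was kept if 3 or more of the 6 libraries reached 0.5 CPM, p-values were adjusted by Benjamini-Hochberg over all genes tested, and the threshold was 0.05. Such fold changes understate the change of low genes. The plan had assumed normalized CPM, and its test was kept although the values were recorded as signal, since their column sums differ between libraries. For differences between tissues, 1 limma model with 6 group means was fitted over the 18 libraries, keeping genes that reached 0.5 CPM in 3 of them. Libraries of different tissues carry the same mouse numbers, which is the only source of the pairing. Deviations from group means of same-numbered libraries had correlations of -0.03 to 0.17. Single values used exact two-sided permutation tests. Alternatives were pseudocounts of 0.1 and 1, 2 other filters, a trend, 5 scalings, edgeR 4.0.16 (5640 genes called in thyroid, 1530 in pituitary and 0 in hypothalamus) and DESeq2 1.42.0 on the recovered reads, and leaving out each mouse. The limma fits were run on simulated counts with few changed genes and the same dispersion for every gene. Such a simulation does not cover a thyroid in which many genes differ. Positions are from GENCODE M21 and promoter sequences from RefSeq. In hypothalamus and pituitary, 27 symbols did not match and were left out between tissues.

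The 9 genes, the lists and the tests were chosen with earlier results of these data known, and the text names the 9 genes, genes of the 6 pathway lists, marker genes, Thrb and the 5 genes most like Tg and Duox2. Separate mice are the replicates. Some genes of the lists enter the counts but are not reported here by name.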

Additional observations from a re-analysis of the deposited data

Results flagged for a closer look

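The genotype difference was compared between tissues by a test of the difference itself (limma on 18 libraries) for the members tested in both tissues, 3 against the pituitary and 5 against the hypothalamus, the Duox genes not among them. Of these 1 was called against the pituitary, where 32.4% of all genes were, and 2 against the hypothalamus, where 29.8% were. For Tg the log2 fold change in thyroid minus that in pituitary was -1.54, and minus that in hypothalamus it was -1.69, with Tg lower in 3 of 3 K146Q thyroids than in any WT thyroid. For Tshr the thyroid minus hypothalamus value was 1.37, and all 3 K146Q thyroids were above the WT thyroids. Levels of Tshr in the hypothalamus were low, at 18 to 46 reads per library, and without K146Q mouse 62 the adjusted p of this contrast was 0.0516.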

How the results depend on the processing

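Tshr and Duox2 kept their direction and call in all 18 thyroid alternatives, and Tg in 16 of 18. When single mice were left out, Tg ran from -1.89 to -1.57, Duox2 from -1.09 to -0.80 and Tshr from 0.91 to 1.15. Tg was not called in limma with a mean-variance trend (adjusted p = 0.82) and had a difference of 0 under quantile normalization. The reported fit without a trend was chosen knowing from earlier results of these data that the trend is extrapolated for Tg. The scale mattered for the split of thyroid calls: 52.2% of called genes were higher in the reported fit, 74.1% with plain CPM, 41.4% with totals without the 10 most abundant genes and 30.6% with scaling to the follicular transcription factors. These moved the median of all genes from -0.03 to 0.16, -0.12 and -0.24. The number of thyroid genes called, 5365, was 3293 (without K146Q mouse 62) to 4601 when single mice were left out. The pituitary count, 1104, was 346 (without K146Q mouse 62) to 848 without single mice, with 348, 424 and 630 without K146Q mouse 60 and WT mice 2 and 1, and 1808 with DESeq2, and the hypothalamus count, 0, was 0 to 1 and 9. The difference in effect between thyroid and hypothalamus was called for 5111 genes, and for 3284 (without mouse 62) to 4406 without single mice.

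Values that had not passed the test changed sign as follows, and the cause was not tested. In thyroid Slc26a4 was -0.25 with edgeR, -0.24 with DESeq2 and between -0.78 (without WT mouse 2) and 0.88 when single mice were left out, and Duoxa1 was -0.0057 with scaling to follicular factors and between -0.066 (without WT mouse 2) and 0.46. Leaving out single mice, Slc5a5 in pituitary ran from -0.014 (without WT mouse 2) to 0.38, and in hypothalamus Tg ran from -0.086 to 0.077 (without WT mouse 43), Iyd from -0.26 to 0.072 (without K146Q mouse 60) and Slc26a4 from -0.089 (without K146Q mouse 62) to 0.67. For thyroid minus hypothalamus, Iyd ran from -0.39 to 0.072 (without mouse 62) and Slc26a4 from -0.95 (without mouse 2) to 0.69, and Slc26a4 was -0.0079 with totals without the 10 most abundant genes. For WT pituitary minus hypothalamus, Tg was 0.28 with those totals and ran from -0.021 to 0.0011 (without mouse 2), and Tshr from -0.22 (without mouse 1) to 0.50.

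With the mouse number as a replicate block, 5572 genes were called for thyroid minus pituitary and 5168 for thyroid minus hypothalamus, and the block changed no call given for the 9 genes. Depth limits Duox1, Duoxa1 and all low values outside the thyroid, where a few reads decide a value. With 3 mice in each group the exact tests cannot give a p below 0.1. Genotype and any batch that the labels do not give cannot be told apart.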
